A study of Canis lupus familiaris with 8 samples.

Results

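The genes of the circadian clock were examined in 2 glands of the stress axis of the dog. The 10 genes were taken by symbol: the activators ARNTL and CLOCK, the repressors PER1, PER2, PER3, CRY1 and CRY2, the nuclear receptors NR1D1 and NR1D2, and the output factor DBP. All 10 were found among the 24580 genes of the deposited tables, and all 10 passed a filter of a mean FPKM of at least 1 (FPKM is the number of sequenced fragments of a gene corrected for its length and for sequencing depth). Messenger RNA had been sequenced from the pituitary and the adrenal cortex of adult Chinese Field Dogs and Beagles. Each breed had one arm under chronic stress and one arm labelled as receiving no disposal, which was read here as unexposed. The 8 libraries were thus 4 pairs, each stressed and unexposed: Chinese Field Dog pituitary, Beagle pituitary, Chinese Field Dog adrenal cortex and Beagle adrenal cortex. Every combination was 1 library, so no group had a replicate. The labels give neither the nature of the stress nor the hour of sampling. They do not say whether a library was 1 dog or a pool, or whether both glands came from the same dogs.

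In mammals the proteins ARNTL (also called BMAL1) and CLOCK pair up and switch on the PER, CRY, NR1D and DBP genes. PER and CRY proteins then shut this pair down, and the NR1D receptors shut down ARNTL itself, so that transcripts of the PER, NR1D and DBP arm crest at another time of day than ARNTL. In mice, the clock of the adrenal cortex is known to gate how strongly the gland answers corticotropin, the pituitary hormone that drives cortisol. PER1 is also an acute target of cyclic AMP signalling and of glucocorticoids, outside the daily cycle.

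Each library held between 14327357 and 18712035 recovered reads, and clock genes held 132 to 6365 reads each in a library. One protocol field names spleen as the RNA source, so the tissue labels were checked against defining genes. The 10 anterior pituitary markers summed to 82261 to 165796 FPKM in the pituitary libraries and to 31.6 to 54.1 FPKM in the adrenal libraries; GH1 is listed at 0 in the unexposed Beagle pituitary. The 5 matched adrenal cortex markers summed to 11669 to 15601 FPKM in the adrenal libraries and to 10.9 to 32.9 FPKM in the pituitary libraries, where the corticotropin receptor MC2R was at 0. The adrenal libraries also held medulla transcripts. The 8 adrenal medulla markers summed to 3212 to 5838 FPKM there and to 1333 to 1681 FPKM in the pituitary libraries, mostly CHGA and CHGB. TH had 134 to 255 FPKM in the adrenal and 0.04 to 0.40 FPKM in the pituitary libraries, while NPY overlapped between the glands. Their part in the gland differences was not tested. The stressed Chinese Field Dog pituitary library stood apart. Its 12 forebrain neuron markers summed to 1845 FPKM, against 139 to 143 FPKM in the other 3 pituitary libraries, and NEUROD6, TBR1 and NEUROD2 were above 0 only there among pituitary libraries. Its 7 glial markers summed to 555 FPKM, against 34.5 to 113 FPKM in the others. The fits were repeated without it, and some values are given both ways.

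Levels of the clock genes can be compared with each other as FPKM only as far as the gene lengths behind it are right. The annotation that gave those lengths is not named in the sources used here. In the pituitary, PER1 averaged 43.4 ± 18.5 FPKM and NR1D2 averaged 40.1 ± 4.92 FPKM (SD over 4 libraries that differ in breed and exposure, not replicates). NR1D1 followed at 23.3 ± 3.88, PER3 at 18.0 ± 3.52, CRY1 at 17.2 ± 3.54, DBP at 11.9 ± 1.62, PER2 at 11.8 ± 3.20, CRY2 at 11.05 ± 2.57, CLOCK at 9.92 ± 0.910 and ARNTL at 6.69 ± 0.731 FPKM. Neighbours in this order overlapped between libraries, except NR1D2 above NR1D1, CRY1 narrowly above DBP (a lowest CRY1 of 13.91 and a highest DBP of 13.87 FPKM), and CLOCK above ARNTL. In the adrenal cortex the order was PER1 at 50.4 ± 25.1, ARNTL at 30.4 ± 14.2, NR1D2 at 21.5 ± 2.55, CRY1 at 15.2 ± 1.60, DBP at 14.3 ± 3.45, NR1D1 at 12.6 ± 3.99, PER3 at 8.19 ± 1.84, PER2 at 6.54 ± 2.16, CLOCK at 5.84 ± 0.318 and CRY2 at 5.61 ± 1.57 FPKM. There, the neighbours that did not overlap were NR1D2 above CRY1. ARNTL was thus the lowest of the 10 in the pituitary and the second in the adrenal cortex.

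**Figure D1:**
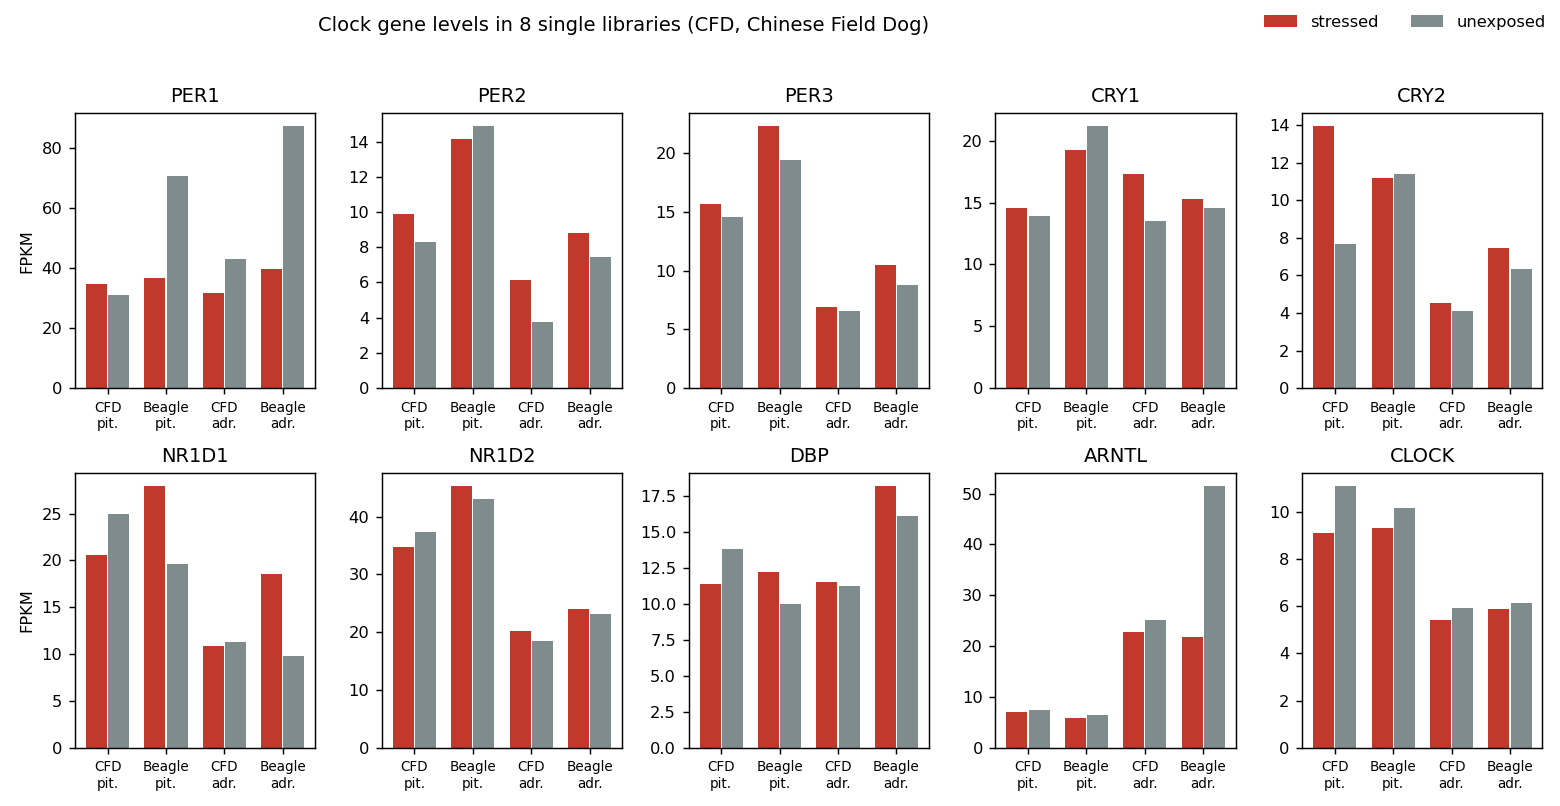
Level of each clock gene in FPKM (vertical axis, scale set per gene and starting at 0) in the 8 single libraries, stressed (red) beside unexposed (grey), for the pituitary (pit.) and the adrenal cortex (adr.) of the Chinese Field Dog (CFD) and the Beagle. PER1 was highest in the 2 unexposed Beagle libraries (70.9 and 87.3 FPKM), and ARNTL was highest in the unexposed Beagle adrenal cortex (51.5 FPKM).

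The first comparison set the pituitary over the adrenal cortex within each breed and exposure. By limma on the 4 log2 ratios of FPKM + 1, ARNTL fell and 6 other clock genes rose in the pituitary, with p-values adjusted by Benjamini and Hochberg over 14808 genes and a threshold of 0.05. The glands differ widely in general, and 58.7% of all genes passed the same test (28.4% higher and 30.2% lower in the pituitary), so that 7 of 10 is not far from that share. In bulk tissue, fewer cells of a type and less RNA per cell cannot be told apart.

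ARNTL (chr21:36293721-36323489 in CanFam 3.1), the partner of CLOCK in the activator, had 7.12 and 7.45 FPKM in the stressed and the unexposed Chinese Field Dog pituitary and 5.83 and 6.37 FPKM in the Beagle pair. The adrenal cortex had 22.8 and 25.2 FPKM in the Chinese Field Dog pair and 21.9 and 51.5 FPKM in the Beagle pair. All 4 pituitary libraries lay below all 4 adrenal libraries, which held for 29.5% of all genes. The mean log2 ratio was -1.94 (SE 0.25, limma adjusted p = 0.0026). CLOCK (chr13:47692041-47758768), the other partner of the activator, went the opposite way. It had 9.08 and 11.1 FPKM in the stressed and the unexposed Chinese Field Dog pituitary and 9.33 and 10.2 FPKM in the Beagle pituitary pair, against 5.40 and 5.94 FPKM and 5.88 and 6.15 FPKM in the matching adrenal libraries. Its log2 ratio was 0.67 (SE 0.08, limma adjusted p = 0.0022), so the 2 partners were not at 1 ratio in the 2 glands.

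Among the repressors, PER3 (chr5:61446204-61502784) had the steadiest gland difference, with log2 ratios of 1.08 and 1.04 in the stressed and the unexposed Chinese Field Dog and of 1.02 and 1.06 in the stressed and the unexposed Beagle. Its mean was 1.05 (SE 0.07, limma adjusted p = 0.00048). PER2 (chr25:48716173-48748214), a core repressor, rose by a log2 of 0.78 (SE 0.10, adjusted p = 0.0031 by limma), although its levels overlapped at 8.29 to 14.9 FPKM in the pituitary and 3.73 to 8.82 FPKM in the adrenal cortex. CRY2 (chr18:43536861-43574313), a partner of the PER proteins, rose by 0.87 (SE 0.17, limma adjusted p = 0.010). Its ratio was 1.43 in the stressed Chinese Field Dog and 0.77, 0.52 and 0.76 in the other 3 pairs. Without the stressed Chinese Field Dog pituitary library the CRY2 value was 0.68 (limma adjusted p = 0.006). PER1 (chr5:32957137-32968490) and CRY1 (chr10:31681701-31780306) were not called, with log2 values of -0.18 (SE 0.12) and 0.16 (SE 0.15).

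Both nuclear receptors rose in the pituitary. NR1D2 (chr23:19758016-19787455) had 34.7 and 37.3 FPKM in the stressed and the unexposed Chinese Field Dog pituitary and 45.3 and 43.0 FPKM in the Beagle pituitary pair, against 20.2 and 18.5 FPKM and 24.0 and 23.1 FPKM in the adrenal libraries, and a log2 ratio of 0.87 (SE 0.08, limma adjusted p = 0.0010). NR1D1 had a log2 ratio of 0.86 (SE 0.11, limma adjusted p = 0.0027). Its deposited locus (chr9:22325182-22576516) is shared by 11 other genes, among them THRA, which is known to overlap NR1D1 on the opposite strand. The library kit does not mark strand and the counting was not described, so reads of the pair may not have been told apart. DBP (chr1:107675843-107687283), which carries clock time to output genes, was not called (log2 -0.23, SE 0.19); its deposited locus is shared with SPHK2. The pituitary libraries lay wholly above the adrenal libraries for PER3, CRY2, CLOCK, NR1D1 and NR1D2, which held for 28.5% of all genes. By the 2-fold rule (a log2 ratio of 1 or more either way), 3 of 10 differed in the stressed and 3 of 10 in the unexposed Chinese Field Dog, and 2 of 10 in each Beagle pair. Of all genes, 36.1%, 27.6%, 28.3% and 28.6% did so in the same order, with the stressed Beagle pair before the unexposed one. These counts depended on the scaling: with recovered reads scaled to each library total, which moved the gland ratios of all genes by a median log2 of 0.24 to 0.36, they were 5 and 7 of 10 in the stressed and the unexposed Chinese Field Dog and 4 and 7 of 10 in the stressed and the unexposed Beagle. Of all genes, 35.9%, 28.4%, 29.5% and 30.7% were past 2-fold under that scaling, in the same order. With a pseudocount of 0.1 the unexposed Chinese Field Dog had 5 of 10, where 32.0% of all genes were past 2-fold. The same 7 of 10 were past limma's threshold under every alternative fit tried. Without the stressed Chinese Field Dog pituitary library their log2 values were -2.07 for ARNTL and 0.68 to 1.04 for the other 6, and CRY1, again not called, was at 0.29.

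**Figure D2:**
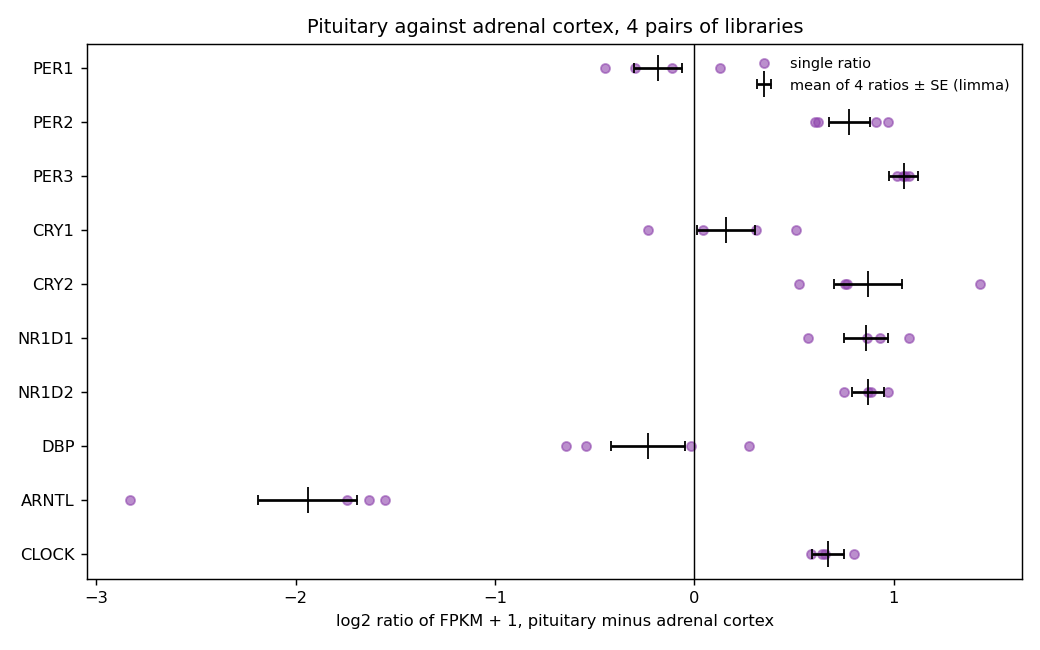
Log2 ratio of FPKM + 1 of pituitary over adrenal cortex (horizontal axis) for each clock gene; points are the 4 single ratios, 1 per breed and exposure, and the cross with bars is their mean ± SE from limma. ARNTL lies at -1.94, PER3 at 1.05 with little spread, and PER1, CRY1 and DBP straddle 0.

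The second comparison, named in the series title, was chronic stress against no exposure. Neither the fit over both glands nor the fits within 1 gland called a clock gene: 0 of 10 passed limma's adjusted threshold, and 0 of 10 had an unadjusted p under 0.05 in those fits. Over both glands, 2 of 14808 genes were called in all (0.0135%) and 3.71% had an unadjusted p under 0.05. Within the adrenal cortex and within the pituitary 1 gene was called in each (0.00675%), and 2.98% and 4.47% had an unadjusted p under 0.05. Also with edgeR and DESeq2 on recovered reads, 0 clock genes were called over both glands, where DESeq2 called 0.186% of its genes and edgeR 0%. The clock genes' adjusted p-values by limma were 0.958 or above there. The 2 breeds were the only replicates of each stress ratio.

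PER1 had the largest stress ratio over both glands. It had 34.7 FPKM in the stressed and 31.2 FPKM in the unexposed Chinese Field Dog pituitary, 36.7 and 70.9 FPKM in the Beagle pituitary pair, 31.6 and 42.9 FPKM in the Chinese Field Dog adrenal pair, and 39.7 and 87.3 FPKM in the Beagle adrenal pair, each time stressed before unexposed. The 2 unexposed Beagle libraries were far above the other 6, which lay within 31.2 to 42.9 FPKM. The mean log2 ratio was -0.58 (SE 0.24, limma adjusted p = 0.958), and -0.85 without the stressed Chinese Field Dog pituitary library (limma adjusted p = 0.822). The Beagle ratios were -0.93 in the pituitary (95% counting interval -1.01 to -0.89) and -1.12 in the adrenal cortex (-1.20 to -1.07). The Chinese Field Dog ratios were 0.15 (0.08 to 0.23) in the pituitary and -0.43 (-0.52 to -0.37) in the adrenal cortex. These Clopper-Pearson intervals are on scaled counts without the added 1, so here and below they need not centre on the ratio beside them. They cover counting error only, and reads from amplified libraries are not independent molecules.

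ARNTL was lower in the stressed library in 4 of 4 pairs, but the size was uneven. The Beagle adrenal cortex had 21.9 FPKM stressed and 51.5 FPKM unexposed (log2 -1.20, 95% counting interval -1.37 to -1.09), while the other 3 pairs had log2 ratios of -0.06, -0.11 and -0.14 whose counting intervals all held 0. The mean was -0.38 (SE 0.21, limma adjusted p = 0.958). CLOCK was also lower in 4 of 4 pairs, by log2 values between -0.26 and -0.05. Its counting interval excluded 0 only in the Chinese Field Dog pituitary (-0.49 to -0.08). Of all genes, 6.76% were lower in 4 of 4 pairs. PER3 was higher in the stressed library in 4 of 4 pairs, as were 5.77% of all genes, with ratios of 0.07 to 0.23. That direction is not stable to scaling, since with recovered reads scaled to each library total PER3 was at -0.03 in the Chinese Field Dog pituitary and -0.10 in its adrenal cortex.

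Taken pair by pair, 2-fold differences (log2 ratios at or beyond 1 or -1) were rare among the clock genes. The Beagle adrenal cortex had 2 of 10, PER1 and ARNTL, both lower in the stressed library, where 2.45% of all genes were lower by that much. Counted either way, 450 of 13730 genes were past 2-fold in that pair. The other 3 pairs had 0 of 10, against 9.54% of all genes in the Chinese Field Dog pituitary, 2.35% in the Beagle pituitary and 2.02% in the Chinese Field Dog adrenal cortex. With reads scaled to each library total, PER1 in the Beagle pituitary was also past 2-fold (log2 -1.03), 1 of 10 where 0.891% of all genes were lower by that much. The Beagle adrenal pair also differed in markers of neighbouring tissue. Its 5 matched fat cell markers summed to 22.5 FPKM in the stressed and 85.0 FPKM in the unexposed library, against 63.5 and 45.9 FPKM in the Chinese Field Dog adrenal pair. The 8 adrenal medulla markers summed to 4738 FPKM in the stressed and 5838 FPKM in the unexposed Beagle adrenal cortex, and to 3212 and 3491 FPKM in the Chinese Field Dog pair. Most of that sum was CHGA and CHGB, and 7 of the 8 markers were lower in the stressed Beagle library. NPY had 35.2 FPKM in the stressed and 266 FPKM in the unexposed Beagle adrenal cortex, TH 142 and 255 FPKM, DBH 467 and 758 FPKM, and PNMT 584 and 962 FPKM, while CHGA had 1920 and 1752 FPKM. None of the 5 fat cell and 8 medulla markers was at 0 in the unexposed Beagle library. Their part in the PER1 and ARNTL values was not tested. In the Beagle pituitary pair the fat cell markers summed to 8.87 FPKM in the stressed and 12.1 FPKM in the unexposed library.

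CRY2 was 13.9 FPKM in the stressed and 7.68 FPKM in the unexposed Chinese Field Dog pituitary (log2 0.78, 95% counting interval 0.73 to 0.99), and 11.2 and 11.4 FPKM in the Beagle pituitary pair. The stressed library is the one with the forebrain neuron and glial transcripts, whose part in the CRY2 value was not tested. CRY2 had 4.53 and 4.10 FPKM in the Chinese Field Dog adrenal pair and 7.46 and 6.34 FPKM in the Beagle adrenal pair, stressed before unexposed. Its mean stress ratio of 0.27 (SE 0.17) was 0.07 to 0.47 as each ratio was left out in turn. PER2 had its largest ratio in the Chinese Field Dog adrenal cortex, with 6.16 FPKM stressed and 3.73 FPKM unexposed (log2 0.60, counting interval 0.52 to 0.93), and a mean of 0.25 (SE 0.12). Neither gene was called by limma (adjusted p = 0.958 for both). CRY1, NR1D2 and DBP had stress ratios between -0.26 and 0.34 in the 4 pairs.

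**Figure D3:**
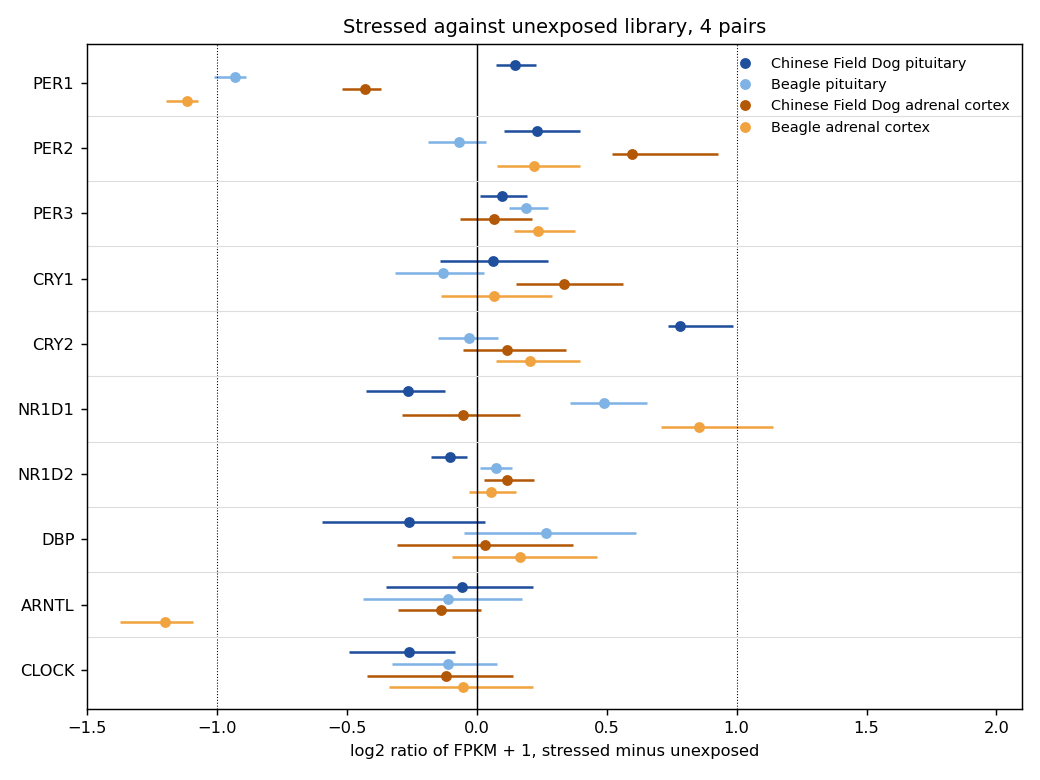
Log2 ratio of FPKM + 1, stressed minus unexposed (horizontal axis), for each clock gene in 4 pairs of single libraries, with 95% counting intervals from scaled counts as bars and dotted lines at 2-fold. PER1 and ARNTL in the Beagle adrenal cortex lie at -1.12 and -1.20, and NR1D1 is above 0 in both Beagle pairs (0.49 and 0.85) and below 0 in both Chinese Field Dog pairs.

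Because the Beagle and Chinese Field Dog ratios parted for PER1 and NR1D1, the same 4 ratios were also fitted with 1 value per breed and the glands as replicates, a fit chosen after the values were seen. For each breed, 2 ratios entered. Whether both glands came from the same dogs is not stated, so these 2 ratios may not be independent. In the Beagle, PER1 had a log2 ratio of -1.02 (SE 0.19, unadjusted p = 0.0064, adjusted p = 1 by limma). The Chinese Field Dog value was -0.14 (SE 0.19). The difference, Chinese Field Dog minus Beagle, was 0.88 (SE 0.27, unadjusted p = 0.033, adjusted p = 0.868 by limma), a contrast in which 0.027% of genes and 0 of 10 clock genes were called. In this fit 6 of 14808 genes were called in the Beagle (0.0405%) and 0 of 10 clock genes, and 2 of 10 had an unadjusted p under 0.05, as did 3.05% of all genes. DESeq2 called 1 of 10, PER1 (log2 -1.04, adjusted p = 0.012), among 0.0476% of its genes. For the other settings the PER1 adjusted p in the Beagle ran up to 1.

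NR1D1, which represses ARNTL, had 20.6 FPKM in the stressed and 24.9 FPKM in the unexposed Chinese Field Dog pituitary, and 28.0 and 19.6 FPKM in the Beagle pituitary pair. The adrenal pairs had 10.8 and 11.3 FPKM in the Chinese Field Dog and 18.5 and 9.80 FPKM in the Beagle, stressed before unexposed. The stressed Beagle libraries were the highest of each gland and the unexposed Beagle libraries the lowest. In the Chinese Field Dog adrenal pair the ratio of -0.055 had a counting interval of -0.29 to 0.17, which held 0. In the Beagle the ratio was 0.67 (SE 0.16, unadjusted p = 0.013, adjusted p = 1 by limma) and in the Chinese Field Dog -0.16 (SE 0.16), with a difference of -0.83 (SE 0.22, unadjusted p = 0.021, adjusted p = 0.868 by limma). Without the stressed Chinese Field Dog pituitary library the difference was -0.73 for NR1D1 and 0.59 for PER1 (limma adjusted p = 0.894 for both). THRA, the overlapping gene, had stress ratios of 0.05 in the Beagle pituitary and -0.03 in the Beagle adrenal cortex. Reads of THRA and NR1D1 may not have been told apart, so these values are no check on those of NR1D1. In the Chinese Field Dog, THRA was at 0.72 in the pituitary and -0.38 in the adrenal cortex. ARNTL had a Beagle ratio of -0.66 (SE 0.30, adjusted p = 1 by limma).

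The opposed arms were then set against each other. For each library the mean log2(FPKM + 1) of PER1, PER2, PER3, NR1D1, NR1D2 and DBP was compared with that of ARNTL and CLOCK; this gap is a description with no test. It was 1.14 and 1.002 in the stressed and the unexposed Chinese Field Dog pituitary and 1.56 and 1.45 in the Beagle pituitary pair. In the adrenal cortex it was 0.12 and -0.06 in the Chinese Field Dog pair and 0.58 and -0.12 in the Beagle pair. All 4 pituitary libraries had a wider gap than all 4 adrenal libraries, in which ARNTL stands high. That separation rested on ARNTL. With CLOCK alone on the activator side the gap was 0.98 and 0.74 in the Chinese Field Dog pituitary pair and 1.27 and 1.15 in the Beagle pituitary pair, against 1.07 and 0.89 in the Chinese Field Dog adrenal pair and 1.44 and 1.32 in the Beagle adrenal pair, stressed before unexposed, so the glands then overlapped.

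Between exposures, the gap was wider in the stressed library by 0.13 in the Chinese Field Dog pituitary, 0.11 in the Beagle pituitary, 0.18 in the Chinese Field Dog adrenal pair and 0.70 in the Beagle adrenal pair. The ARNTL and CLOCK mean carried this, with differences of -0.16, -0.11, -0.13 and -0.63, while the mean of the opposite arm differed by -0.03, 0.00, 0.05 and 0.07. Within that opposite arm the members did not share a direction: in the Beagle adrenal cortex 5 of 6 were higher in the stressed library and PER1 was lower. The Beagle adrenal value rested on ARNTL, since it was 0.12 without ARNTL and 1.27 without CLOCK. The other values also depended on how the arms were summarised. With medians in place of means the difference was 0.45 in the Beagle pituitary and 1.14 in the Beagle adrenal cortex. Adding NPAS2, a close relative of CLOCK, to the activator arm gave -0.38 in the Chinese Field Dog pituitary, where NPAS2 had 6.28 FPKM stressed and 1.81 FPKM unexposed and the neuronal transcripts were high. With NPAS2 the Beagle pituitary was at 0.27, the Chinese Field Dog adrenal cortex at 0.38, and the Beagle one at 0.34.

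**Figure D4:**
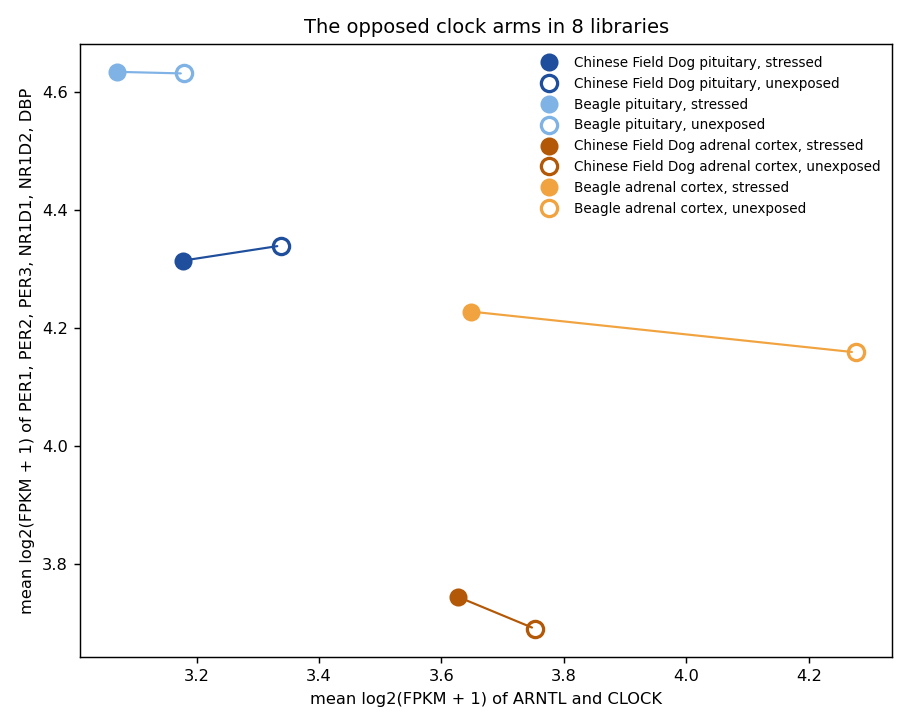
Mean log2(FPKM + 1) of ARNTL and CLOCK (horizontal axis) against that of PER1, PER2, PER3, NR1D1, NR1D2 and DBP (vertical axis) in 8 libraries, filled for stressed and open for unexposed, with a line joining each pair. Pituitary libraries lie at the upper left, and the longest line, in the Beagle adrenal cortex, runs along the ARNTL and CLOCK axis (a difference of -0.63 against 0.07 on the other axis).

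The third comparison was Chinese Field Dog against Beagle within gland and exposure. It uses the same 8 libraries as the stress comparison, so the 2 are not independent. By limma 0 of 10 clock genes were called over both glands, where 5 of 14808 genes were (0.0338%), and 3 of 10 (PER2, PER3 and NR1D2) had an unadjusted p under 0.05, as did 9.37% of all genes. Within the adrenal cortex 0 of 10 were called, with 0.0338% of genes called and 6.48% at an unadjusted p under 0.05, against 3 clock genes. In the pituitary 0 of 10 were called, with 0.0203% of genes called and 7.93% at an unadjusted p under 0.05, again against 3 clock genes. Without the stressed Chinese Field Dog pituitary library, 0 of 10 were called in each of these 3 fits and in each stress fit. PER2 over both glands was then -0.71 and PER3 -0.42 (limma adjusted p = 0.471 and 0.498).

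The 3 PER genes and NR1D2 were lower in the Chinese Field Dog in 4 of 4 pairs, as were 11.5% of all genes. PER2 had 9.91 FPKM in the stressed Chinese Field Dog pituitary and 14.1 FPKM in the Beagle, and 8.29 and 14.9 FPKM in the unexposed pituitary pair. Its adrenal levels were 6.16 and 8.82 FPKM in the stressed pair and 3.73 and 7.43 FPKM in the unexposed pair, Chinese Field Dog before Beagle. In each gland both Chinese Field Dog libraries lay below both Beagle libraries, as they did for PER3 and NR1D2. The share of all genes that did so was not counted. The log2 ratio was -0.63 over both glands (SE 0.12, unadjusted p = 0.0062, adjusted p = 0.376 by limma), -0.65 in the adrenal cortex (SE 0.17) and -0.62 in the pituitary (SE 0.17). DESeq2 on recovered reads called PER2 (log2 -0.70, adjusted p = 0.019) and PER3, 2 of 10, where it called 1.42% of its genes; edgeR called 0.0943% of its genes and gave PER2 an adjusted p of 0.186.

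PER3, the family member with the smallest spread, had 15.7 FPKM in the stressed Chinese Field Dog pituitary and 22.3 FPKM in the Beagle one, and 14.6 and 19.4 FPKM in the unexposed pair. In the adrenal cortex it had 6.90 and 10.5 FPKM in the stressed pair and 6.55 and 8.79 FPKM in the unexposed pair. As for PER2, both Chinese Field Dog libraries lay below both Beagle libraries in each gland. The share of all genes that did so was not counted here either. The log2 ratio was -0.45 over both glands (SE 0.09, unadjusted p = 0.0084, adjusted p = 0.390 by limma), and the 4 single ratios were between -0.54 and -0.37. NR1D2 had a ratio of -0.28 (SE 0.09, adjusted p = 0.505 by limma).

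The PER1 ratios lay farther apart between exposures. Its Chinese Field Dog over Beagle ratio was -0.08 in the stressed and -1.16 in the unexposed pituitary. It was -0.32 in the stressed and -1.01 in the unexposed adrenal cortex. The mean was -0.64 (SE 0.24, adjusted p = 0.542 by limma), and -0.91 without the stressed Chinese Field Dog pituitary library. CRY2 was lower in the Chinese Field Dog in 3 of 4 pairs (log2 -0.52, -0.61 and -0.53) and higher in the stressed pituitary pair (0.30), which holds the library with neuronal transcripts; its mean was -0.34 (SE 0.17), and -0.54 without that ratio. In the adrenal cortex DBP had 11.5 FPKM in the stressed Chinese Field Dog and 18.2 FPKM in the stressed Beagle, and 11.3 and 16.2 FPKM in the unexposed pair (log2 -0.55, SE 0.18, adjusted p = 0.755 by limma). In the pituitary CRY1 had 14.6 and 19.2 FPKM in the stressed pair and 13.9 and 21.2 FPKM in the unexposed pair, Chinese Field Dog before Beagle (log2 -0.47, SE 0.15, adjusted p = 0.602 by limma). Lymphocyte markers (7 matched) also moved with breed, summing to 37.1 to 59.4 FPKM in the Chinese Field Dog libraries and 3.59 to 6.99 FPKM in the Beagle libraries. NKG7 was at 0 in all 4 Beagle libraries and in both Chinese Field Dog pituitary libraries. The sum of the macrophage markers (5 matched) was also higher in the Chinese Field Dog. They summed to 48.9 and 53.5 FPKM in the stressed and the unexposed Chinese Field Dog pituitary, against 27.6 and 26.1 FPKM in the Beagle pituitary. In the adrenal cortex they summed to 131 and 171 FPKM in the Chinese Field Dog and 83.4 and 83.3 FPKM in the Beagle. Among them MARCO, a scavenger receptor, had 5.41 to 9.74 FPKM in the Chinese Field Dog libraries and 0.04 to 0.20 FPKM in the Beagle libraries. Their part in these values was not tested.

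Past 2-fold, PER1 and ARNTL were lower in the Chinese Field Dog than in the Beagle in the unexposed adrenal pair, 2 of 10 where 2.70% of all genes were lower, and both were near the limit at log2 -1.01 and -1.004. Both were lost, leaving 0 of 10, with ratios centred on their median (-0.97 for each, where 2.52% of all genes were lower) and with reads scaled to each library total (-0.94 and -0.93, where 2.0% were lower). PER1 was the only one in the unexposed pituitary, 1 of 10 where 1.44% of all genes were lower. Counted either way, 598 of 13744 genes were past 2-fold in the unexposed adrenal pair and 498 of 14460 in the unexposed pituitary pair. The stressed pairs had 0 of 10, with 11.1% of all genes 2-fold different in the pituitary and 3.0% in the adrenal cortex.

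**Figure D5:**
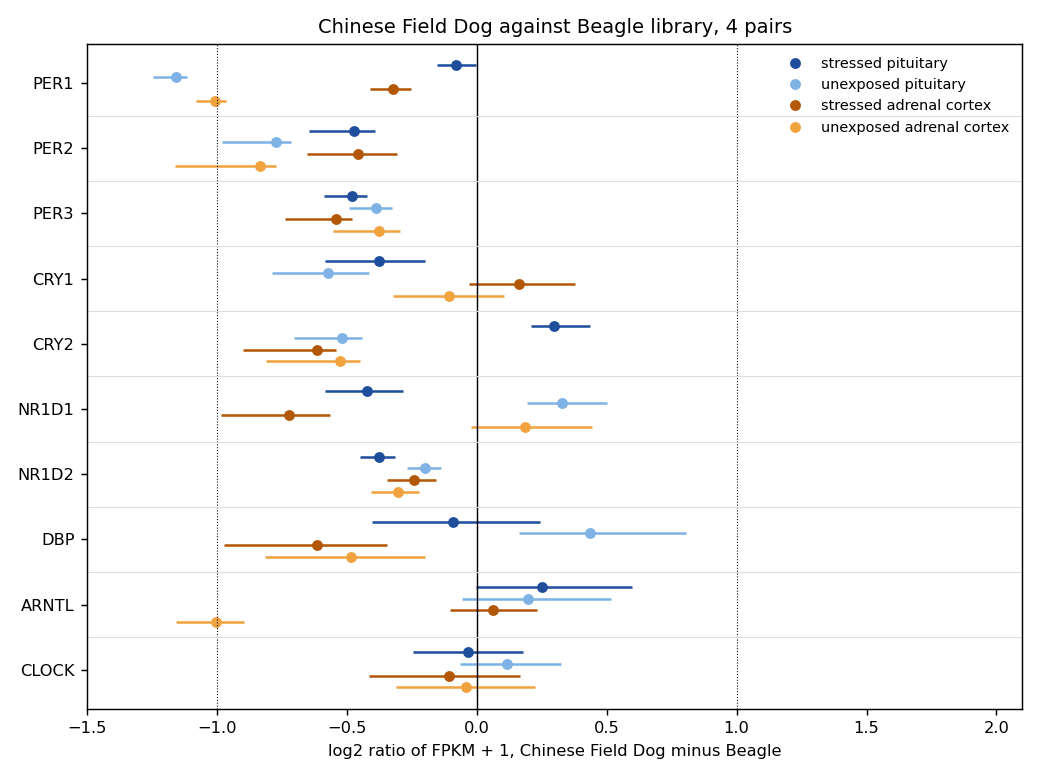
Log2 ratio of FPKM + 1, Chinese Field Dog minus Beagle (horizontal axis), for each clock gene in 4 pairs of single libraries, with 95% counting intervals from scaled counts as bars and dotted lines at 2-fold. PER2 lies between -0.83 and -0.46 and PER3 between -0.54 and -0.37 in the 4 pairs, while NR1D1 is below 0 in both stressed pairs and above 0 in both unexposed pairs.

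The wider clock was followed in a list of 27 other clock genes, of which 24 were measured. Between glands, 12 rose and 3 fell in the pituitary, 15 of 24 where 58.7% of all genes were called, with a median log2 ratio of 0.34 against 0.00 over all genes. Without the stressed Chinese Field Dog pituitary library 10 rose and 3 fell, with a median of 0.24, where 9033 of 14808 genes were called. For stress and for breed 0 of 24 were called by limma in any fit, with medians over both glands of 0.00 for stress and -0.06 for breed. By the size of the stress ratio, the list was led by NFIL3 (log2 -0.58, SE 0.29), a repressor of the DBP family's targets, BHLHE40 (0.48, SE 0.09), a repressor that acts on PER1, and RORA (-0.33, SE 0.10), an activator of ARNTL. NFIL3 had 8.41 FPKM in the stressed and 29.4 FPKM in the unexposed Beagle adrenal cortex, and 8.33 and 11.2 FPKM in the Chinese Field Dog pair. Its stress ratio was -0.80 without the stressed Chinese Field Dog pituitary library. BHLHE40 was higher in the stressed library in 4 of 4 pairs, most in the Chinese Field Dog pituitary at 29.8 FPKM against 17.7 FPKM, and its ratio was 0.47 without that pair. USP2 (log2 -0.48, SE 0.22), a deubiquitinase, led by breed, with -0.77 without the stressed Chinese Field Dog pituitary library.

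Genes that PER1 shares inputs with were listed in the same way. Of the 20 measured CREB and immediate-early genes, which cyclic AMP and other acute signals switch on, 0 were called for stress or breed by limma. SIK1, a kinase that damps this pathway, had 8.34 FPKM in the stressed and 30.6 FPKM in the unexposed Beagle pituitary, and 7.85 and 43.9 FPKM in the Beagle adrenal pair. The Chinese Field Dog pairs had 12.1 and 10.4 FPKM in the pituitary and 5.58 and 9.72 FPKM in the adrenal cortex. GEM, a small GTPase, had 1.91 and 14.7 FPKM in the Beagle pituitary pair and 4.28 and 30.7 FPKM in the Beagle adrenal pair, and CREM, a cyclic AMP responsive factor, had 6.41 and 11.8 FPKM and 10.3 and 53.1 FPKM, stressed before unexposed. As for PER1, the 2 unexposed Beagle libraries held the highest level of SIK1 and of GEM in their gland. The members of the list did not all move with PER1. Of the 20, 6 in the pituitary and 18 in the adrenal gland of the Chinese Field Dog were lower in the stressed library, against 15 in the pituitary and 11 in the adrenal gland of the Beagle. In the Beagle adrenal cortex FOS (log2 0.57), EGR1 (0.47), EGR2 (0.80), EGR3 (0.83), IER2 (0.52) and JUN (0.28), immediate-early factors, were higher in the stressed library. The limma ratios over both glands were -1.15 (SE 0.46) for SIK1, -1.31 (SE 0.61) for GEM and -0.90 (SE 0.39) for CREM, each with an adjusted p of 0.958. They were -1.64, -1.96 and -0.99 without the stressed Chinese Field Dog pituitary library, and 0 of the 20 genes were then called for stress or breed. NR4A1 (log2 -1.09, SE 0.50) and NR4A2 (-1.22, SE 0.44), immediate-early nuclear receptors, led this list by breed, with -1.76 and -1.83 without that library.

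Of 13 measured glucocorticoid-induced genes, 13 had a stress ratio below 0 over both glands, with a median of -0.19 against 0.00 over all genes, and 0 were called. In the Beagle pituitary 12 of 13 were lower in the stressed library, with a median of -0.72, while the other 3 pairs had medians of 0.03, -0.06 and -0.04. ANGPTL4 (log2 -0.59, SE 0.09), PDK4 (-0.55, SE 0.16) and GADD45A (-0.33, SE 0.17) led by stress, and ERRFI1 (-0.72, SE 0.37) and PDK4 (-0.61, SE 0.16) by breed. Without the stressed Chinese Field Dog pituitary library 13 of 13 were again below 0 for stress, with a median of -0.37, and ERRFI1 was at -1.22 by breed. Among 10 measured clock-controlled outputs 0 were called for stress or breed. SLC25A25, a mitochondrial carrier, had 16.1 FPKM in the stressed and 99.0 FPKM in the unexposed Beagle adrenal cortex and 12.2 to 19.02 FPKM in the other 6 libraries (log2 -0.66, SE 0.44 for stress; -0.63, SE 0.44 for breed). KLF10 had a stress ratio of -0.36 (SE 0.10), TSC22D3 of -0.23 (SE 0.16; -0.37 without the stressed Chinese Field Dog pituitary library), and KLF9 a breed ratio of -0.40 (SE 0.10).

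No clock gene varied enough within its gland (a root mean square of at least 0.5 in log2 about the gland mean, over 8 libraries) for a search of the genes most like it. PER1 came nearest at 0.498. Its 3 closest genes of 12529, named although the limit was missed, were ELL2, a transcription elongation factor, MTCP1 and CD44, a surface receptor, with root mean square differences of 0.09, 0.13 and 0.16. ELL2 had 27.4 and 46.0 FPKM in the stressed and the unexposed Beagle pituitary and 12.3 and 23.3 FPKM in the Beagle adrenal pair. The Chinese Field Dog pairs had 24.8 and 23.2 FPKM in the pituitary and 8.64 and 12.2 FPKM in the adrenal cortex.

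In the authors' deposited table, the 10 genes had 80 p-values over 8 comparisons of 2 libraries, and 0 were at or under 0.05. The lowest, for ARNTL in the stressed against the unexposed Beagle adrenal cortex, was 0.1395 in the authors' deposited table.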

How the data were processed

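Per the labels, libraries were made with an Illumina TruSeq kit, and per the submitters' processing notes reads were aligned with TopHat to CanFam 3.1. The counting program and annotation are not given in the sources used here. The authors deposited 8 tables of 2 libraries each, with FPKM values and scaled counts, a signal equal to reads divided by 1 size factor per library. Columns of 1 library were identical in 16 of 16 pairs of tables. The p-value columns are the authors' own deposited results and were only quoted. Reads were recovered by dividing by each library's step (0.899 to 1.17 units), and 98.7% to 99.1% of values were then whole within 0.02. The step was close to 1 in the stressed Chinese Field Dog pituitary and in the Beagle adrenal cortex under stress, whose reads are approximate. Depth was 14327357 to 18712035 reads.

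Here, log2 ratios were taken from the authors' deposited FPKM after adding 1, which understates differences of low genes. The 14808 genes averaging 1 FPKM or more were fitted with limma 3.58.1 in R 4.3.3, with 2 residual degrees of freedom for stress and breed and 3 for gland, with Benjamini-Hochberg adjustment. Breeds served as replicates of stress, exposures as replicates of breed, and glands as replicates in the fit with 1 value per breed. Nothing states that libraries are separate animals, so the p-values reflect the spread among these libraries, which may be technical. edgeR 4.0.16 and DESeq2 1.42.0 were run on recovered reads as alternatives, beside another pseudocount of 0.1, no filter, centred ratios, and each ratio left out. The limma step was run on simulated data to check the sign of large changes. Those changes were equal in every pair, unlike here, and the fit with 1 value per breed was left out.

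The 10 genes, the gene lists and the marker lists were chosen with earlier results of these data known. All 10 clock genes are named. From each list the 3 largest stress and 2 largest breed ratios are named, except 1 gene that is not reported here, and other genes named were chosen after their values were seen. The genes CIART, NONO, NAMPT, NOCT, SGK1, CEBPD, NR4A3 and CRTC1 had no matching symbol.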

Additional observations from a re-analysis of the deposited data

Results flagged for a closer look

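NR1D1 was the only clock gene whose stress ratios had opposite signs in the 2 breeds in both glands. The share of all genes with that pattern was not counted, so it cannot be called unusual. The log2 ratio, stressed minus unexposed, was -0.26 in the Chinese Field Dog pituitary and -0.055 in the Chinese Field Dog adrenal cortex, against 0.49 in the Beagle pituitary and 0.85 in the Beagle adrenal cortex. Seen from the other side, the Chinese Field Dog minus Beagle ratio was -0.42 in the stressed pituitary and -0.72 in the stressed adrenal cortex, against 0.33 in the unexposed pituitary and 0.19 in the unexposed adrenal cortex. The adrenal signs are weak where the ratios are small: the counting interval was -0.29 to 0.17 for the -0.055 and -0.02 to 0.44 for the 0.19, so both held 0. The difference between the breeds' stress ratios was -0.83 (SE 0.22), with an unadjusted p of 0.021 and an adjusted p of 0.868 by limma, so it failed the correction. THRA, which shares a deposited locus with NR1D1, had stress ratios of 0.72, 0.05, -0.38 and -0.03 in the Chinese Field Dog pituitary, the Beagle pituitary, the Chinese Field Dog adrenal cortex and the Beagle adrenal cortex.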

How the results depend on the processing

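Of the clock genes, 7 were called between glands in every alternative, and 0 for stress over both glands in every alternative. DESeq2 called 2 of 10 for breed over both glands and 1 of 10 for stress in the Beagle, where limma called 0. Counts over all genes were unstable. Against 2 genes for stress over both glands and 5 for breed over both glands, alternatives called 0 to 37 and 0 to 241, while between glands 6462 to 9791 were called against 8686. Other ranges were 0 to 26 (stress, adrenal cortex), 0 to 67 (stress, pituitary), 0 to 34 (their difference), 0 to 103 (breed, adrenal cortex), 0 to 225 (breed, pituitary), 0 to 24 (stress, Beagle), 0 to 41 (stress, Chinese Field Dog) and 0 to 40 (their difference). PER1 in the Chinese Field Dog ran between -0.43 and 0.15 as each ratio was left out, and changed sign without the adrenal one.

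With recovered reads scaled to each library total, ratios of all genes moved by a median log2 of 0.24 to 0.36 between glands and by -0.17 to -0.04 for stress. The number of clock genes past 2-fold was then 1 in the Beagle pituitary for stress, where 0.891% of all genes were that much lower. It was 0 in the unexposed adrenal cortex for breed, where 2.0% were lower, and 0 with centred ratios, where 2.52% were lower. Between glands, stressed before unexposed, it was 5 and 7 in the Chinese Field Dog and 4 and 7 in the Beagle. In that order, 35.9%, 28.4%, 29.5% and 30.7% of all genes were past 2-fold. With a pseudocount of 0.1 the number of clock genes was 5 in the unexposed Chinese Field Dog, where 32.0% of all genes were past 2-fold.

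The stress difference of the arm gap was 0.45 in the Beagle pituitary and 1.14 in the Beagle adrenal cortex with medians in place of means. With NPAS2 added it was -0.38 (pituitary) and 0.38 (adrenal cortex) for the Chinese Field Dog, and 0.34 for the Beagle adrenal cortex. Leaving out each gene gave 0.12 to 1.27 in the Beagle adrenal cortex. The cause of these shifts was not tested. Pairing entered only through the ratios, formed within breed, gland or exposure. No paired analysis was possible by replicate number, because each group is 1 library and the labels give no shared replicate numbers. Depth limits the low genes most: at 132 reads, the least for any clock gene, counting error alone spans a log2 range of -0.31 to 0.37 (DBP, Chinese Field Dog adrenal cortex).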
